A study of Artemia parthenogenetic lineage with 6 samples.

Results

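The gene models described here held an even level in diapausing brine shrimp cysts but differed strongly between libraries taken 5 h after embryonic diapause termination (EDT). They were chosen by CPM, the read count of a model divided by the total count of its library and scaled to the same total in every library. A member had at least 16 CPM in every diapause library (ArD_0h), a highest ArD_0h level of at most 1.3 times the lowest, and levels at least 2-fold apart between replicates 2 and 3 of the 5 h group (ArR_5h). Of 16591 gene models in the table, 5758 reached 16 CPM in every ArD_0h library, 5618 of these were also steady, and 309 were members. All 309 members were higher in ArR_5h replicate 2 than in replicate 3, and 0 models met the rule in the other direction. The even ArD_0h levels and the difference between replicates 2 and 3 were used to choose the members, so they are described and not tested. ArR_5h replicate 1 was not used to choose them.

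An Artemia cyst is a shelled embryo that can stop its development in diapause. In that state metabolism, transcription and translation are strongly reduced, and messenger RNA made earlier is stored. When diapause ends, development resumes, stored RNA can be used or broken down, and new RNA is made. A level measured a few hours after EDT thus reflects both what remains of the stored RNA and what has been added, relative to all other RNA in the library.

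RNA of Artemia parthenogenetica cysts, a parthenogenetic brine shrimp labelled as wild type, was sequenced with 3 libraries per group. The ArR_5h cysts had been rehydrated in ice-cold artificial seawater of 30‰ salinity and kept at 28 °C in constant light for 5 h, whereas the ArD_0h cysts are labelled as untreated diapause cysts (0 h). According to the methods of the study the cysts were a batch from Ebinur Lake and the replicates biological, but the labels do not say whether the replicates were separate incubations. Cysts of this kind were dried and kept cold to end diapause, and the sources do not say which of these steps the ArD_0h cysts had passed, so effects of these steps and of time cannot be told apart. The models carry identifiers without gene names, so the labelled tissue (cyst) was not checked against marker genes, and the roles given below are the GO terms (standard terms for gene functions) that the study lists for some models.

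Library totals were 9992823 to 12283327 counts in ArR_5h and 10135128 to 13505892 counts in ArD_0h. A level of 16 CPM thus stood for 159.9 to 216 counts. The smallest count of a member in any library was 23, found in ArR_5h replicate 3, where the median member had 222 counts. Across the 11959 models tested between the stages, log2(CPM + 1) correlated at 0.983 between ArR_5h replicates 2 and 3, at 0.992 between replicates 1 and 2, at 0.990 between replicates 1 and 3, and at no less than 0.994 among the ArD_0h libraries.

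The difference between ArR_5h replicates 2 and 3 ran one way. Replicate 2 was 2.003 to 3.26-fold higher than replicate 3 in the members, with a median of 2.25-fold. In 246 members the ratio was below 2.5-fold, in 55 it was from 2.5 to 3-fold, and in 8 it was at least 3-fold. Members were 5.50% of the steady models. At a limit of 1.5-fold, 1051 steady models were higher in replicate 2 and 6 were higher in replicate 3. Exact 95% intervals of the ratio, which cover counting error only, had a lower bound above 2 in 103 members and of at least 1.18 in every member. Members were chosen by the same counts, which favours high ratios, and neither these intervals nor those of single members below allow for that choice. The number depended on how libraries were scaled. With TMM factors, which lower the log2 ratio of replicate 2 to replicate 3 by 0.14 in every model, 171 models were higher in replicate 2 and 1 in replicate 3. With RLE factors these counts were 158 and 1, and with the deposited FPKM values 153 and 1. With a minimum of 32 CPM, 190 members were left.

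**Figure D1:**
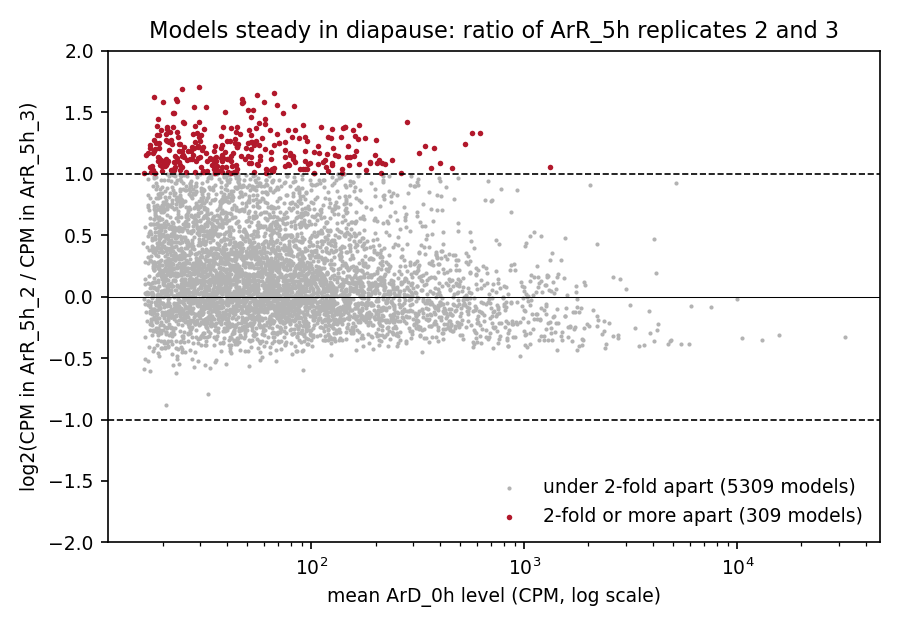
Each point is 1 of the 5618 models steady in diapause, with its mean ArD_0h level in CPM (log axis) and the log2 ratio of ArR_5h replicate 2 to replicate 3. The dashed lines mark 2-fold: 309 models (red) lie on or above the upper line and 0 below the lower line.

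The member with the largest ratio was evm.TU.ctg1189.1, at 10.6, 15.1 and 4.64 CPM in ArR_5h replicates 1, 2 and 3, against 30.8, 29.8 and 28.0 CPM in ArD_0h replicates 1, 2 and 3. Its ratio of 3.26-fold rested on 151 counts in replicate 2 and 57 counts in replicate 3 (exact 95% interval 2.39 to 4.50). Every ArR_5h library lay below every ArD_0h library, and replicate 3 lay farthest away. In evm.TU.ctg1115.4 the ArR_5h libraries had 22.0, 31.5 and 9.77 CPM and the ArD_0h libraries 24.6, 22.2 and 27.3 CPM, so replicate 2 lay above and replicates 1 and 3 lay below all of the diapause libraries. In evm.TU.ctg756.9, with 24.4, 37.7 and 12.4 CPM in ArR_5h against 23.8, 22.99 and 22.4 CPM in ArD_0h, replicates 1 and 2 lay above and replicate 3 below all of the diapause libraries. The remaining 3 of the 6 largest ratios belonged to evm.TU.ctg96.12_evm.TU.ctg96.8 (3.15-fold), evm.TU.ctg234.1 (3.12-fold) and evm.TU.ctg45.9 (3.08-fold).

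Around the limits of the rule the values were continuous. Just inside the 2-fold limit were evm.TU.ctg621.3 (108.6 CPM in ArR_5h replicate 2 and 54.2 CPM in replicate 3) and evm.TU.ctg1006.1_evm.TU.ctg1006.3 (70.9 and 35.3 CPM). Just outside it were evm.TU.ctg1494.3 (24.4 and 12.2 CPM) and evm.TU.ctg1189.9 (14.8 and 7.41 CPM). The steady models with the largest ratio the other way were evm.TU.ctg281.10, at 8.11 CPM in replicate 2 and 14.9 CPM in replicate 3 (1.84-fold), and a model without an evm.TU identifier (a non-evm model) of 841 bases (1.73-fold). A further 9 models at 16 CPM or more passed the 5 h condition but had an ArD_0h range above 1.3. The nearest of them, evm.TU.ctg310.13_evm.TU.ctg310.12, had a range of 1.31, and the 2 members nearest to that limit, non-evm models of 8693 and 2987 bases, had a range of 1.29 each.

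ArR_5h replicate 1, the library that the rule did not use, lay between the other two in 307 of the 309 members. On a log scale on which replicate 3 is at 0 and replicate 2 is at 1, its median position was 0.62, with quartiles of 0.54 and 0.70, and it lay nearer to replicate 2 in 259 members. The median member was 1.67-fold higher in replicate 1 than in replicate 3, and 1.37-fold higher in replicate 2 than in replicate 1. Since the rule picks models in which replicates 2 and 3 are far apart, a middle place for replicate 1 is favoured by the choice. Among 742 steady models with a ratio from 1.5 to just under 2-fold, replicate 1 lay between the others in 96.0% and had a median position of 0.65. Among all 5309 steady models that were not members, it lay between them in 61.8%.

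**Figure D2:**
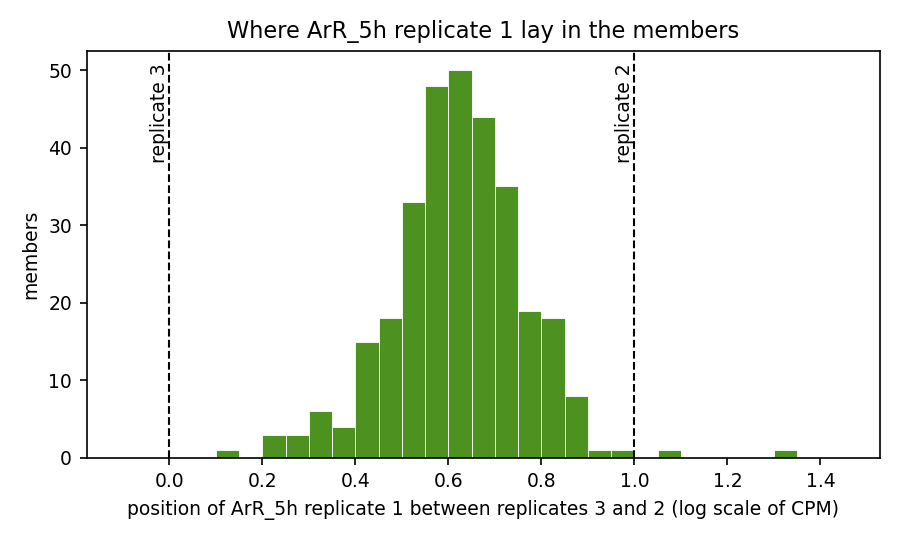
Histogram of the 309 members by the position of ArR_5h replicate 1, where 0 is the level of replicate 3 and 1 that of replicate 2 on a log scale of CPM. The median is at 0.62, and 2 members lie above 1.

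In no member did replicate 1 lie below replicate 3. It lay above replicate 2 in 2 members, evm.TU.ctg87.59, with 14.4, 13.7 and 6.51 CPM in ArR_5h replicates 1, 2 and 3, and a non-evm model of 3636 bases, with 4.78, 3.80 and 1.87 CPM. Comparing replicate 1 with replicate 3 directly, 34 steady models were at least 2-fold higher in replicate 1, of which 29 were members, and 0 were at least 2-fold higher in replicate 3. Between replicates 1 and 2, 0 steady models differed by 2-fold in either direction. These pairs share libraries with the rule and are given as a description.

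Relative to diapause, the members fell into 3 kinds. In 188 (60.8%) all ArR_5h libraries lay below all ArD_0h libraries, in 14 (4.53%) all lay above, and in 107 (34.6%) the groups overlapped. Over all models tested the share with all ArR_5h libraries below was 32% and the share with all above was 34.6%, and among all steady models these shares were 42.1% and 31.4%. Groups that did not overlap were thus found in 65.4% of the members, against 66.7% of all models tested. Replicate 3 was below every ArD_0h library in 93.2% of the members, replicate 1 in 241 members and replicate 2 in 188. A low replicate 3 is favoured by the choice, and counts per library were not taken over other models, so they are no result about the members. Whether ArR_5h holds less RNA of a member per cell or fewer cells that contain it cannot be told apart in these libraries.

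**Figure D3:**
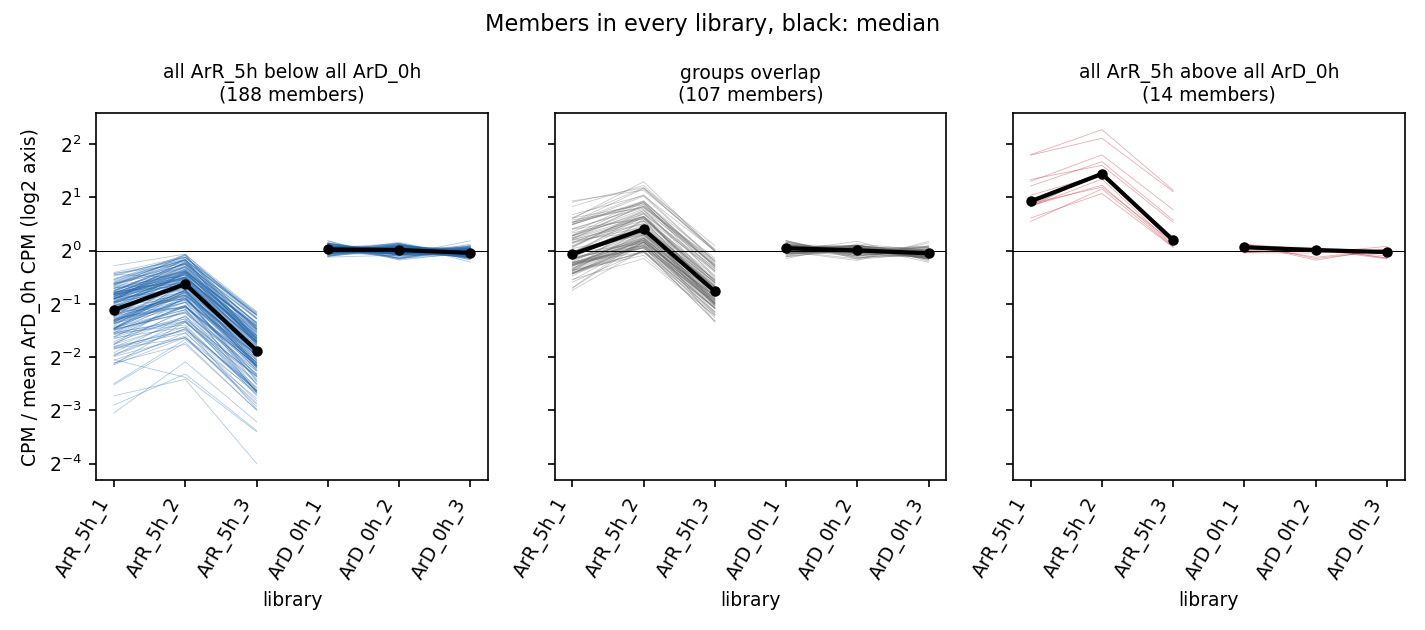
Level of each member in every library divided by its mean ArD_0h level (log2 axis), with 1 thin line per member and the median in black, for the 188 members with all ArR_5h libraries below ArD_0h (left), the 107 with overlapping groups (middle) and the 14 with all ArR_5h libraries above (right). In each panel the median of the ArR_5h libraries is highest in replicate 2 and lowest in replicate 3, while the ArD_0h libraries stay near 1.

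ArR_5h was compared with ArD_0h by edgeR's quasi-likelihood test. A model was called when its log2 fold change exceeded 1 in either direction with an adjusted p no larger than 0.05. Of the members 122 were called down (39.5%) and 5 up (1.62%), and 182 were not called. Over all 11959 models tested, 10.7% were called down and 14.3% up, 25% in all. Among the steady models the shares were 9.99% and 5.02%. The median log2 fold change was −0.83 in the members and −0.01 over all tested models. The test used the same libraries as the rule, and the wide ArR_5h spread that the rule selects went with a larger error, with a median SE of 0.21 in the members and 0.10 in the other steady models. These counts are therefore a description. With glmTreat, an edgeR test against the fold limit itself, 47 members were called down and 2 up. Without ArR_5h replicate 3, 86 members were called down and 10 up, and without ArR_5h replicate 2, 169 were called down and 3 up. Over all models, glmTreat called 523 down and 836 up. The counts over all models were 1236 down and 1902 up without ArR_5h replicate 3, and 1521 down and 1673 up without ArR_5h replicate 2.

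Replicate 1 alone, which the rule did not use, was at least 2-fold below the ArD_0h mean in 105 members (34.0%), against 8.76% of all steady models. It was at least 2-fold above that mean in 6 members (1.94%), against 6.05% of all steady models. The rule did use the ArD_0h levels, and its minimum level applied to ArD_0h only, for members and other steady models alike. Replicate 1 also shares its group with replicates 2 and 3, so such shares are a description. Sorted by replicate 1 alone, members made up 21.3% of the 492 steady models that were at least 2-fold below diapause and 7.92% of the 1339 that were from 1.25 to 2-fold below. They were 2.71% of the 2322 within 1.25-fold, 2.58% of the 1125 from 1.25 to 2-fold above and 1.76% of the 340 at least 2-fold above. The median log2 ratio of replicate 2 to replicate 3 was 0.63 in the first of these classes and 0.02 to 0.26 in the others.

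Among members whose ArR_5h libraries all lay below diapause, the median level was 0.46 times the ArD_0h mean in replicate 1, 0.65 times in replicate 2 and 0.27 times in replicate 3. Those called down had log2 fold changes of −2.96 to −1.01. In 74 of these 122, replicate 2 still held more than 0.5 times the ArD_0h mean.

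The deepest fall among the named members was that of evm.TU.ctg883.6, with 9.04, 11.2 and 3.74 CPM in ArR_5h replicates 1, 2 and 3, against 58.4, 66.9 and 54.3 CPM in ArD_0h. Its log2 fold change was −2.96 ± 0.26 (SE; edgeR, adjusted p = 6.64e-06). Even its highest ArR_5h library was far below its lowest ArD_0h library. A non-evm model of 6860 bases had 5.67, 8.51 and 4.07 CPM in ArR_5h, against 41.6, 45.8 and 39.8 CPM in ArD_0h (log2 fold change −2.85 ± 0.19; edgeR, adjusted p = 1.64e-06). Another, of 3353 bases, had 2.84, 5.50 and 2.52 CPM in ArR_5h, against 23.2, 23.8 and 23.3 CPM in ArD_0h (log2 fold change −2.75 ± 0.22; edgeR, adjusted p = 4.58e-06). Replicates 1 and 3 were close to each other in this model, at position 0.15, the lowest of all members.

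Calls with a smaller change included some of the largest ratios between replicates. The log2 fold change of evm.TU.ctg1189.1 was −1.60 ± 0.28 (edgeR, adjusted p = 0.000614). That of evm.TU.ctg96.12_evm.TU.ctg96.8, with 24.2, 36.7 and 11.6 CPM in ArR_5h against 66.8, 63.9 and 69.7 CPM in ArD_0h, was −1.52 ± 0.27 (edgeR, adjusted p = 0.000713). The short evm.TU.ctg621.3 (765 bases) fell to 83.1, 108.6 and 54.2 CPM in ArR_5h, against 212.8, 218.8 and 201.5 CPM in ArD_0h (log2 fold change −1.41 ± 0.17; edgeR, adjusted p = 5.48e-05). The groups did not overlap in any of these models. The model evm.TU.ctg234.1 had 38.2, 53.0 and 17.0 CPM in ArR_5h and 54.0, 58.4 and 54.8 CPM in ArD_0h, and was not called (log2 fold change −0.68 ± 0.27; edgeR, adjusted p = 0.0506), but it was called down without ArR_5h replicate 2 (−1.02).

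In 85 of the 107 members with overlapping groups, replicate 2 lay above every ArD_0h library while replicate 3 lay below every one. Where groups overlap, this pattern is favoured by the rule, which asks for a 2-fold gap between these replicates and an even ArD_0h level. Replicate 1 lay within the ArD_0h range in 14 of the 107, above it in 40 and below it in 53. The clearest case with many reads was evm.TU.ctg642.14, at 611, 817 and 325 CPM in ArR_5h replicates 1, 2 and 3 against 636, 619 and 602 CPM in ArD_0h. Its mean was 585 ± 247 CPM in ArR_5h and 619 ± 17.3 CPM in ArD_0h (SD, n = 3 each), with a log2 fold change of −0.13 ± 0.22 that did not pass the test (edgeR, adjusted p = 0.629). The ratio of replicates 2 and 3 was 2.51-fold here, from 8167 and 3995 counts (exact 95% interval 2.42 to 2.61). The member with most reads in diapause, evm.TU.ctg530.4, had 943, 1208 and 583 CPM in ArR_5h and 1339, 1313 and 1286 CPM in ArD_0h, so that here all ArR_5h libraries lay below (log2 fold change −0.57 ± 0.18, under the fold limit; edgeR, adjusted p = 0.0169).

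In the 14 members with all ArR_5h libraries above diapause, the median level was 1.90 times the ArD_0h mean in replicate 1, 2.72 times in replicate 2 and 1.14 times in replicate 3. Replicate 3, the lowest ArR_5h library, was thus the nearest to diapause in these members and the farthest from it in the members that lay below it. The model evm.TU.ctg1010.1 rose to 87.6, 121.4 and 55.1 CPM in ArR_5h, against 26.7, 25.8 and 22.9 CPM in ArD_0h (log2 fold change 1.77 ± 0.21; edgeR, adjusted p = 5.20e-05). The joined model evm.TU.ctg1006.1_evm.TU.ctg1006.3, annotated with zinc ion binding, rose to 56.9, 70.9 and 35.3 CPM, against 16.4, 16.5 and 16.2 CPM in ArD_0h (log2 fold change 1.68 ± 0.19; edgeR, adjusted p = 3.81e-05). In evm.TU.ctg272.8 the levels were 52.7, 63.3 and 30.2 CPM in ArR_5h and 20.5, 20.9 and 21.1 CPM in ArD_0h (log2 fold change 1.18 ± 0.20; edgeR, adjusted p = 0.000519), and this call was lost without ArR_5h replicate 2 (0.99). The other 2 members called up were evm.TU.ctg393.7 and evm.TU.ctg40.37, with log2 fold changes of 1.31 ± 0.19 and 1.18 ± 0.20.

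Few members could be given a function from the annotation used here. The study lists GO terms for genes that changed alike in RNA and in chromatin accessibility, from 0 h to 30 min and from 30 min to 5 h. Only part of the list for the first interval was used here, and 567 models of the table were found in it. Of these, 307 were steady in diapause and 24 were members. GO terms stood beside 460 of the 567, beside 255 of the steady models and beside 19 of the members. The study chose those genes partly on the ArD_0h libraries, and its list for the first 30 min holds more genes that rose than fell. They are thus no unbiased sample, in the direction of change either. Among the 19, replicate 1 was above the ArD_0h mean in 13, and 1 was called up and none down. Among the 290 members without GO terms in this part of the list, replicate 1 was above in 43, and 4 were called up and 122 down. These 290 are not all without annotation, since evm.TU.ctg25.48, which the study annotates elsewhere, is 1 of them. Of the 236 steady models with GO terms that were not members, replicate 1 was above in 198, and 52 were called up and 4 down.

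By GO group the members were spread thinly. They numbered 3 of 46 steady models with hydrolase or peptidase terms, 2 of 20 with signal transduction, 2 of 27 with oxidoreductase activity, 2 of 61 with nucleic acid binding, 1 of 18 with kinase terms and 1 of 14 with cytoskeleton terms. Members numbered 0 of 37 steady models with transport terms, 0 of 20 with transcription, 0 of 20 with lipid or carbohydrate metabolism, 0 of 10 with translation or ribosome, 0 of 4 with G protein-coupled receptor (GPCR) terms and 0 of 1 with chitin or cuticle terms. All of these counts cover only terms in the part of the list used here. The member evm.TU.ctg25.48, to which the study gives GPCR activity in the later interval, has no terms in that part. With counts this small no group is set apart from the others.

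Among the annotated members, evm.TU.ctg471.3 carries terms of serine-type endopeptidases, enzymes that cut proteins. It had 422, 595 and 237 CPM in ArR_5h replicates 1, 2 and 3 against 566, 569 and 567 CPM in ArD_0h. The ArD_0h libraries, at 568 ± 1.58 CPM (SD, n = 3), hardly differed, while the ArR_5h libraries reached from below to above them (log2 fold change −0.49 ± 0.22; edgeR, adjusted p = 0.0765). A further member with the same terms, evm.TU.ctg112.25, had 23.8, 35.7 and 15.1 CPM in ArR_5h and 18.2, 20.03 and 17.8 CPM in ArD_0h.

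Gap junctions are channels that join neighbouring cells, and 2 members carry this term. For evm.TU.ctg58.11 the ArR_5h libraries had 233, 307 and 126 CPM and the ArD_0h libraries 169, 171 and 156 CPM, with overlap (log2 fold change 0.38 ± 0.22; edgeR, adjusted p = 0.153). For evm.TU.ctg395.6, which also carries terms of cell division and oxidoreductase activity, they had 214, 293 and 146 CPM and 141, 142 and 135 CPM, with all ArR_5h libraries above (log2 fold change 0.60 ± 0.17; edgeR, adjusted p = 0.0113). Replicate 3 was close to the diapause level in this model, and the change was under the fold limit. The difference between the 2 models was not tested.

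Signal transduction, the passing of signals within a cell, was annotated for evm.TU.ctg210.51 and evm.TU.ctg260.37. The model evm.TU.ctg210.51 had 80.3, 115.5 and 49.2 CPM in ArR_5h against 58.7, 56.1 and 55.5 CPM in ArD_0h. In evm.TU.ctg260.37 these were 44.4, 69.9 and 29.6 CPM against 43.0, 48.2 and 44.4 CPM. In both, replicate 2 was above and replicate 3 below all ArD_0h libraries, and neither was called. The kinase member, evm.TU.ctg325.23, is annotated with inositol trisphosphate 3-kinase activity, which phosphorylates a soluble messenger that releases calcium. It had 31.0, 43.6 and 18.9 CPM in ArR_5h and 30.6, 28.1 and 25.3 CPM in ArD_0h.

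A structural annotation, binding to the cytoskeleton, belonged to evm.TU.ctg121.11, which also carries terms of a viral process and a viral capsid. It had 144, 211 and 86.1 CPM in ArR_5h against 138, 143 and 131 CPM in ArD_0h (log2 fold change 0.06 ± 0.22; edgeR, adjusted p = 0.839). The nucleic acid binding model evm.TU.ctg24.29 was lower in all ArR_5h libraries, with 73.5, 91.0 and 44.8 CPM against 116.8, 123.5 and 120.1 CPM in ArD_0h (log2 fold change −0.83 ± 0.17; edgeR, adjusted p = 0.00197), and was called down only when ArR_5h replicate 2 was left out (−1.02). The splicing model evm.TU.ctg34.26, annotated to the U1 particle that recognises the start of introns, had 39.3, 45.2 and 21.004 CPM in ArR_5h and 21.6, 21.6 and 18.5 CPM in ArD_0h. Here replicates 1 and 2 lay above diapause and replicate 3 within its range.

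The model evm.TU.ctg832.3, with terms of copper binding, oxidoreductase and sulfuric ester hydrolase activity, had 75.04, 97.3 and 44.2 CPM in ArR_5h against 53.7, 49.8 and 52.5 CPM in ArD_0h. For evm.TU.ctg436.6, with zinc ion binding, these were 48.7, 73.2 and 36.0 CPM against 69.5, 63.5 and 63.2 CPM, and for the nucleotidyltransferase model evm.TU.ctg289.2 they were 49.9, 73.3 and 31.8 CPM against 55.6, 53.4 and 47.6 CPM. None of these 3 was called. In evm.TU.ctg991.8, whose only specific terms are those of a viral envelope, all ArR_5h libraries were above, at 102.6, 134 and 60.7 CPM against 58.5, 58.1 and 54.6 CPM in ArD_0h (log2 fold change 0.75 ± 0.20; edgeR, adjusted p = 0.00730).

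**Figure D4:**
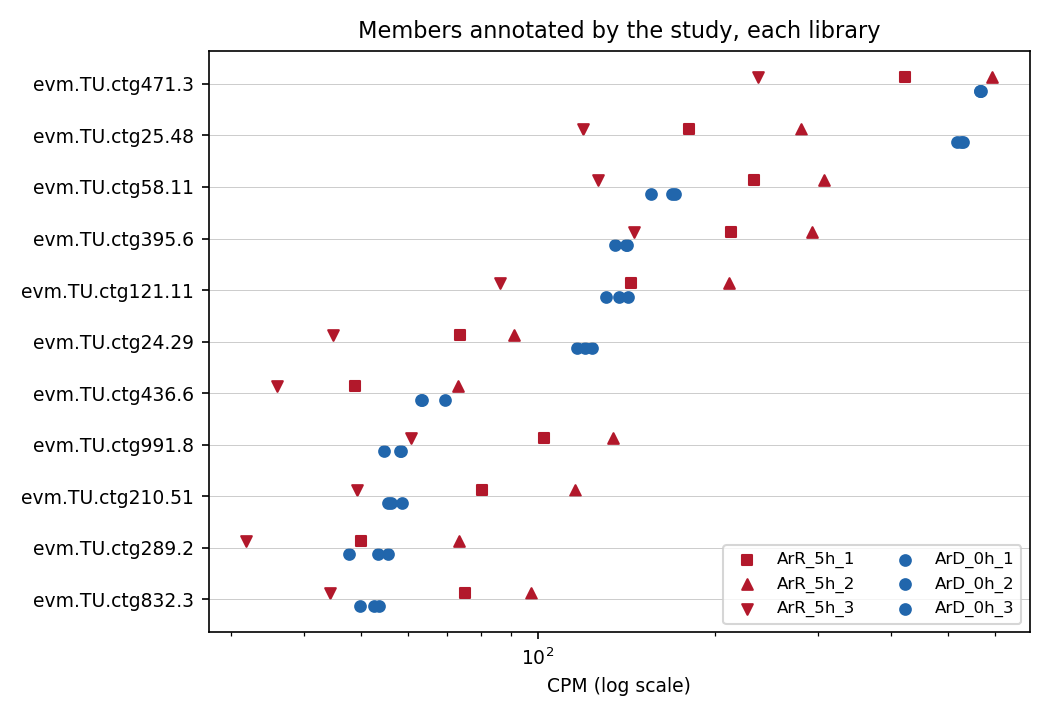
CPM (log axis) in each library of the 10 members with GO terms that had most reads in diapause and of evm.TU.ctg25.48. Red marks are ArR_5h replicates 1 (square), 2 (triangle up) and 3 (triangle down) and blue dots are the ArD_0h libraries. Replicate 2 is the highest and replicate 3 the lowest ArR_5h library in each row, and in evm.TU.ctg25.48 all 3 lie below diapause.

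Of the models that the study names in its text, 1 was a member. It is evm.TU.ctg25.48, which the study lists among candidates for GPCRs, membrane receptors that signal through G proteins, although the study's tools predicted no membrane helix in it. It had 181, 281 and 119 CPM in ArR_5h replicates 1, 2 and 3 against 529.8, 526 and 518 CPM in ArD_0h, with no overlap. The log2 fold change was −1.49 ± 0.21 (edgeR, adjusted p = 0.000163). Steady in diapause were 4 of the 10 GPCR candidates that belong to the later interval and 4 of the 5 that belong to the first 30 min. The log2 ratio of replicate 2 to replicate 3 was 1.24 in evm.TU.ctg25.48 and ran from 0.13 to 0.33 in the 4 steady candidates of the early interval. In the other 3 steady candidates of the later interval, the list it belongs to, it ran from −0.07 to 0.61. Among 6 signal transduction models on a further list, 3 were steady, with log2 ratios of 0.18 to 0.50.

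The members shared a greater length, which the rule did not use. Their median length was 2559 bases, with quartiles of 1935 and 3790, against 1543 bases (929 and 2505) in the other steady models. Members were 15 of 1500 steady models under 1000 bases (1%), 70 of 2014 from 1000 to 2000 bases (3.48%), 158 of 1535 from 2000 to 4000 bases (10.3%) and 66 of 569 of 4000 bases or more (11.6%). The ratio of replicate 2 to replicate 3 shifted with length over all steady models and not only in the members. Its median log2 value was −0.00 under 1000 bases, 0.08 and 0.27 in the middle classes and 0.57 from 4000 bases. For replicate 1 against replicate 3 the medians ran from 0.02 to 0.36, and for replicate 2 against replicate 1 from −0.02 to 0.19. Between ArD_0h libraries no class had a median above 0.05 in size.

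**Figure D5:**
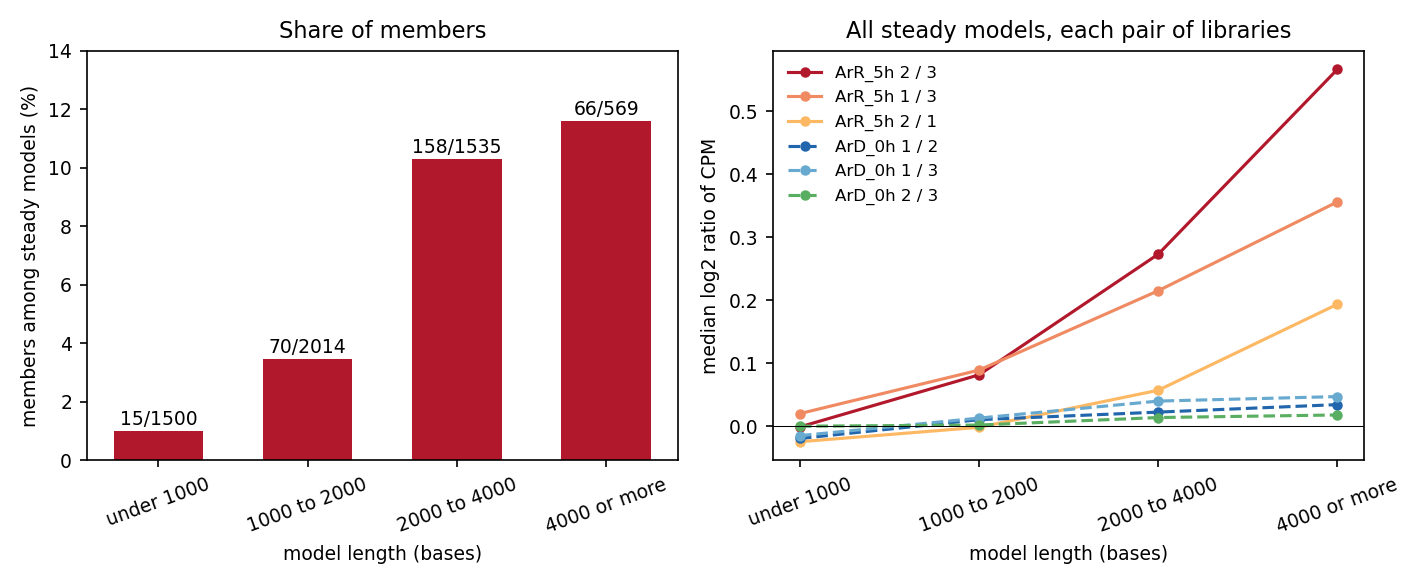
Left, members as a percentage of the steady models in 4 length classes (bases), with counts above the bars. Right, the median log2 ratio of CPM over the steady models of each class for the 3 pairs of ArR_5h libraries (solid) and the 3 pairs of ArD_0h libraries (dashed). The ArR_5h pairs reach 0.57, 0.36 and 0.19 in models of 4000 bases or more, while the ArD_0h pairs stay within 0.05 of 0.

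When the ratio was taken relative to the median of the steady models of like length, a measure chosen after the data were seen, 118 members remained at least 2-fold higher in replicate 2. In all, 120 models met this limit, with a median length of 1772 bases, and 2 models met it in the other direction. Sorted by replicate 1 within models of 2000 bases or more, members were 26.6% of those at least 2-fold below diapause and 1.90% of those at least 2-fold above. In shorter models these shares were 15.8% and 1.54%. Model length thus moved with the difference between the ArR_5h libraries, and its part in the choice of members was not tested further. RNA integrity was assessed per the labels, but no value for any library is given in the sources used here, so whether ArR_5h replicates 2 and 3 differed in it was not tested. The ratios of these replicates and the share of members called down both rest on these libraries.

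Members were also less abundant per base than the other steady models, with a median ArD_0h level of 16.6 FPKM (fragments per kilobase of model, scaled to library size) against 41.5 FPKM. FPKM divides by length, in which the members were greater. In CPM, which does not, the medians were 42.1 and 61.6. They were 8.23% of the steady models at 16 to 32 CPM in diapause and 1.77% of those at 256 CPM and above. Together the members took 1.53%, 2.09% and 0.924% of all counts in ArR_5h replicates 1, 2 and 3, against 2.38%, 2.34% and 2.26% in ArD_0h. The median coefficient of variation was 38.7% between the ArR_5h libraries and 4.96% between the ArD_0h libraries, and in the other steady models 9.07% and 4.30%. The rule itself sets the members apart in the ArR_5h variation and in the shares of replicates 2 and 3, so these values only describe the choice. Of the 309 members, 253 had a single evm.TU identifier (5.29% of such steady models), 9 joined several of them (6.04%) and 47 were non-evm models (6.83%).

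Members lay on many contigs of the genome assembly, and some were neighbours. The 253 members with a single evm.TU identifier lay on 215 contigs, of which 184 held 1 member, 26 held 2 and 5 held 3 or more. Of the neighbours of such members by identifier number that were themselves steady, 13.5% were members, against 5.29% of all steady evm models, and 9 pairs of adjacent members were found. Reads shared by overlapping neighbours were not separated. Contig 1189 held the most, 5 members of 9 steady models. In evm.TU.ctg1189.7 the levels were 8.06, 12.1 and 4.64 CPM in ArR_5h and 21.6, 21.1 and 19.99 CPM in ArD_0h. The adjacent evm.TU.ctg1189.8 had 3.63, 6.30 and 2.61 CPM in ArR_5h and 21.6, 22.3 and 18.5 CPM in ArD_0h. The models evm.TU.ctg1189.13 and evm.TU.ctg1189.19 had log2 fold changes of −0.78 ± 0.20 and −1.83 ± 0.25, so that with evm.TU.ctg1189.1 all 5 were lower at 5 h, 4 of them called. This contig was picked after its values were seen.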

How the data were processed

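RNA of 3 ArR_5h and 3 ArD_0h libraries was read as 150 bp paired ends from a kit that does not mark strand, so reads of overlapping or antisense models cannot be told apart. Per the submitters' processing notes and the methods of the study, the authors aligned clean reads to the Artemia franciscana genome with HISAT2 2.0.5 and counted them per gene model with featureCounts 1.5.0-p3. The deposited table holds raw counts and FPKM values per model and library. The authors computed FPKM from count and gene length. Dividing counts by FPKM gave the model lengths, which were whole within 0.05 bases for 14844 of 14844 models with reads. Of the columns with values, 0 were left without a library.

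CPM were counts divided by library totals. The members and lists were chosen with earlier results of these data known. Counts entered edgeR 4.0.16 and its quasi-likelihood F test (R 4.3.3; TMM factors, filterByExpr with minimum count 10 and total 15, Benjamini-Hochberg adjustment), ArR_5h against ArD_0h, tested on simulated data. P-values set the difference between the groups against the spread between the libraries of a group, which may be technical. Exact intervals of a ratio of counts come from the binomial distribution. A count of 3 was 0.222 to 0.3002 CPM. Named members were, by rule, the 6 largest ratios of replicates 2 and 3, the 4 with most ArD_0h reads, the 3 highest and 3 lowest in replicate 1 relative to ArD_0h, members named by the study, the 10 with GO terms and most reads, and those at the limits. Other names were chosen after their values were seen. Alternatives were other scalings, limits and filters, DESeq2 1.42.0, limma-voom 3.58.1, glmTreat, a replicate block and leaving out each library. Figures were drawn with matplotlib 3.10.9.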

Additional observations from a re-analysis of the deposited data

How the results depend on the processing

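The number of members depended on scaling and limits. It was 171 with TMM factors, 158 with RLE factors and 153 with FPKM, which are all subsets of the 309 members but for 1 model each in the first 2 cases. It was 190 with a minimum of 32 CPM, 1051 at 1.5-fold, 8 at 3-fold and 120 relative to models of the same length. Without each ArD_0h replicate in turn it was 316 to 326. Models higher in replicate 3 numbered 1 with TMM factors, 1 with RLE factors, 1 with FPKM, 3 with a minimum of 8 CPM, 6 at 1.5-fold, 2 relative to models of the same length, and 0 to 1 without each ArD_0h replicate. With none or so few of these, the place of replicate 1 and the calls could not be given for that direction. The place of replicate 1 moved little, with 307 members between under each scaling and a median position of 0.60 to 0.62.

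Calls against diapause numbered 2984 over all models and 127 in the members, and 2980 to 3194 and 96 to 172 when each library was left out. With glmTreat, which asks that a change exceed the fold limit beyond its error, they were 1359 and 49. DESeq2 called 127 members, the same as edgeR. The 10 named members that were called kept the call in 136 of 140 results under alternatives and lost it in 4, and the 18 that were not called gained a call in 3 of 252. The calls of evm.TU.ctg1189.1, evm.TU.ctg96.12_evm.TU.ctg96.8 and evm.TU.ctg272.8 were lost with glmTreat. Without ArR_5h replicate 2 that of evm.TU.ctg272.8 was lost and those of evm.TU.ctg234.1, evm.TU.ctg24.29 and a non-evm model of 2987 bases were gained. The cause of these shifts was not tested. A fit with a replicate block called 3006 models and 135 members. Deviations from the group means correlated at 0.02, 0.03 and 0.09 between libraries of equal number. ArR_5h replicates 1 and 3 correlated best with the ArD_0h library of equal number, but ArR_5h replicate 2 did so with ArD_0h replicate 1 (0.05). With values this small, pairing by number is not shown. Counting error limits members with few reads in ArR_5h replicate 3, where the smallest count was 23.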

Other observations

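The reverse selection gave almost no models. Of 3987 models with at least 16 CPM in every ArR_5h library and a highest ArR_5h level of at most 1.3 times the lowest, 1 differed by at least 2-fold between ArD_0h libraries, by 2.08-fold, and 3574 of the 3987 were also steady in diapause.

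Below the level limit, 3 models with 8 to 16 CPM in diapause were at least 2-fold higher in replicate 3 than in replicate 2. One of them, evm.TU.ctg2297.6 (530 bases), had 5.05, 2.40 and 5.45 CPM in ArR_5h replicates 1, 2 and 3 against 9.74, 9.08 and 9.26 CPM in ArD_0h, so that replicate 1 lay next to replicate 3. The other 2, non-evm models of 701 and 763 bases, had 7.18, 5.10 and 11.7 CPM and 0.532, 0.4003 and 0.896 CPM in ArR_5h, the lowest of these levels resting on few reads, and there replicate 1 lay nearer to replicate 2 on a log scale. In evm.TU.ctg281.10 (1156 bases), the model that passed the rule in that direction with TMM factors, replicate 1 was next to replicate 3, with 12.8, 8.11 and 14.9 CPM in ArR_5h against 19.7, 22.1 and 20.3 CPM in ArD_0h. Both evm models were lower in all ArR_5h libraries than in all ArD_0h libraries.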
